A study of Homo sapiens with 2 samples.

Results

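The transcripts examined here encode the proteins that choose splice sites and the kinases that control them, namely SR proteins, TRA2 proteins, heterogeneous nuclear ribonucleoproteins (hnRNPs), and the CLK and SRPK kinases. Members were taken by name from the annotation of the array, as every probe set paired with a single gene whose symbol starts with SRSF or HNRNP, or is CLK1, CLK2, CLK3, CLK4, SRPK1, SRPK2, TRA2A or TRA2B. This gave 142 probe sets of 39 genes, of 41091 probe sets of 19775 genes with a single name and 54613 probe sets in all. Another 14 probe sets carried such a symbol together with that of another gene and were not used, so SRSF2, SRSF9 and HNRNPH2 are not read here. The arrays compare PC-3 cells, an androgen-independent human prostate cancer line, after 24 h with Riccardin D (RD), a macrocyclic bisbibenzyl from a liverwort, with control PC-3 cells. The treatment protocol gives the control DMSO, the solvent of RD, while its source name describes it as not treated, and the labels state no dose. A single Affymetrix HG-U133 Plus 2.0 array was hybridised per condition, so no p-value can be given, the number of arrays limits the precision, and any difference between the cultures cannot be told apart from the treatment.

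SR proteins bind exon sequences through an RNA recognition motif and recruit the spliceosome through a tail rich in arginine and serine, the RS domain. Many hnRNPs oppose them at nearby splice sites, and several act also in mRNA stability, export or chromatin structure. SRPK kinases phosphorylate RS domains mainly in the cytoplasm, which sends SR proteins to the nucleus, and CLK kinases phosphorylate them further inside the nucleus, which releases them from nuclear speckles. Genes of SR proteins, several hnRNPs and CLK1 are known for making alternative transcripts that retain introns or carry exons with early stop codons, so that probe sets of such a gene need not read the same RNA. Where on the transcript each probe set lies is not given in the tables used here.

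The files hold MAS5 signals, that is, linear intensities. Differences are log2 signals of RD minus control unless a fold is named. A probe set was called higher or lower when its signals lay 2-fold or more apart and at least 1 of them reached 66.9, the median of all signals, which serves as the floor. Probe sets with a mean signal over both arrays (on the log2 scale) of 377.4 (the upper quartile of signals) or more are called bright. Both arrays had been scaled alike, with means of 495.8 and 495.9 after trimming 2% at either end, and the median difference over all named genes was -0.0071. A change in total RNA per cell would therefore not be seen, and in such bulk samples fewer cells with a transcript and less of it per cell cannot be told apart. Of markers of the line, KRT18, CD44 and VIM had signals of at least 10224 on both arrays and KRT8 had 114 and 159, whereas KRT19 and EPCAM were under the floor on both. Of genes that the line lacks, KLK2 was under the floor and KLK3 was at 131 in control and 231 in RD-treated cells. The leukocyte gene PTPRC and the neuroendocrine gene CHGA were under the floor, and endothelial PECAM1 (122 and 72.7) and fibroblast COL1A1 (371 and 326) were over it.

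Most of these genes differed little between both arrays. Of the 142 probe sets, 7 were called higher and 10 lower, 125 were not called, and the median difference was -0.01. Over all probe sets with a single gene name, 8.14% were called higher and 7.99% lower. Of the 127 probe sets that reached the floor on at least 1 array, 89 were bright, among which 4 were called higher and 5 lower, against 9.71% and 9.51% of all bright probe sets. The quartiles of the difference were -0.33 and 0.35 for bright members, and -0.47 and 0.48 for all bright probe sets. With each gene read by its brightest probe set, CLK1 and CLK4 were called higher, HNRNPD was called lower, and the other 36 genes were not called. The share called over all genes was 7.84% higher and 8.63% lower, and over genes with a bright probe set it was 9.05% and 9.89%. The median difference was -0.11 over the 39 genes and -0.0071 over all genes. The pseudogene HNRNPA3P1 and the SR gene SRSF12 were under the floor on both arrays, which leaves 37 genes with a signal to compare.

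**Figure D1:**
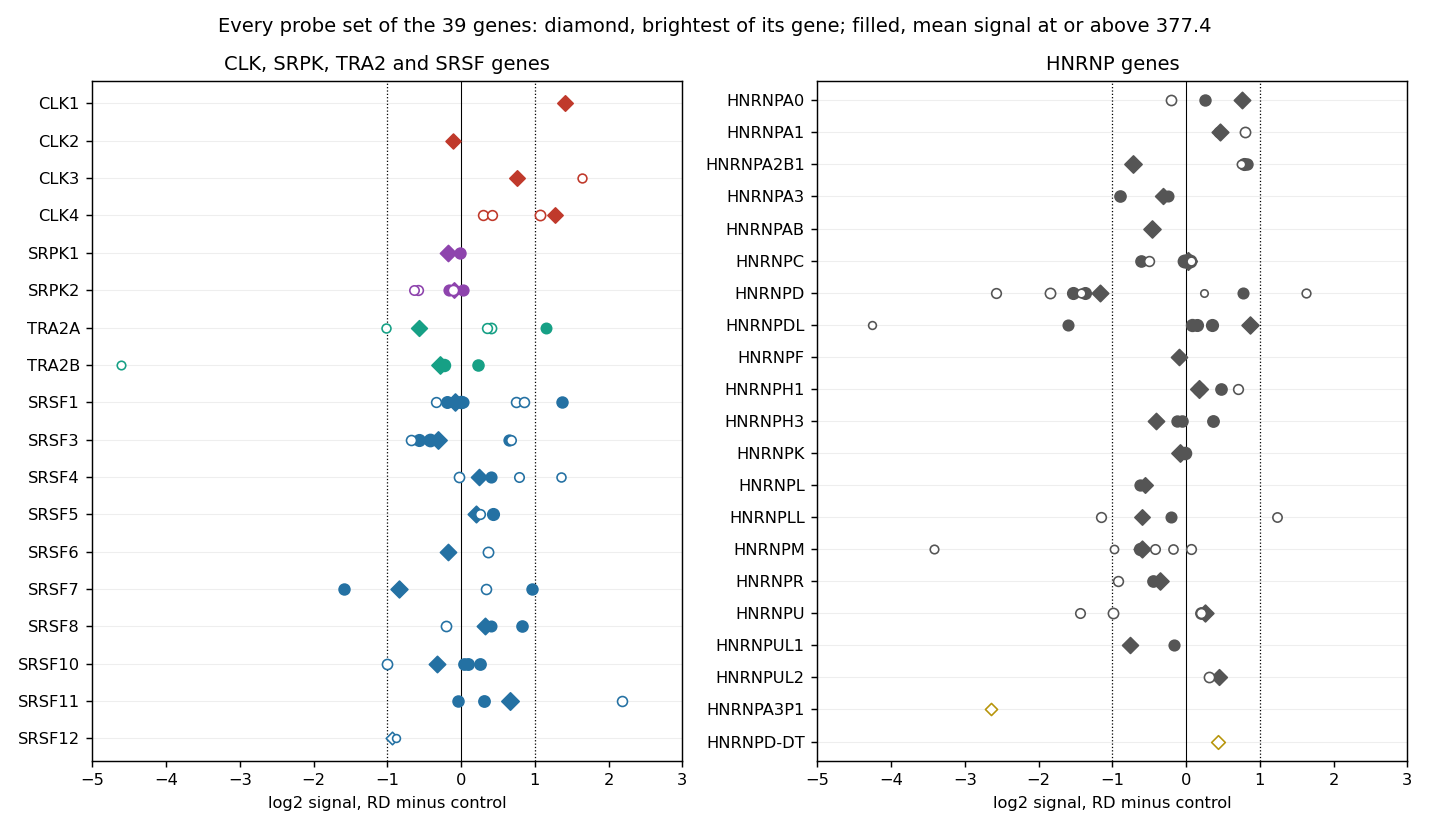
Difference in log2 signal (RD minus control, horizontal) of all 142 probe sets, by gene. Diamonds are the brightest probe set of a gene, filled symbols have a mean signal at or above 377.4, larger symbols are brighter, and dotted lines stand at 2-fold. The diamonds of CLK1 and CLK4 lie to the right of the dotted line and most HNRNPD probe sets to the left, while the probe sets of genes such as SRSF7 and HNRNPDL spread over both sides of 0.

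The nuclear kinases CLK1 and CLK4 had higher signals in RD-treated cells, whereas CLK2 and both SRPK genes had nearly the same signal on both arrays. CLK1, a dual-specificity kinase that phosphorylates RS domains and itself, was read by 1 probe set, with a signal of 719 in control and 1907 in RD-treated cells. This was 2.65-fold higher, a difference of 1.41 that 4.06% of all bright probe sets reached. CLK4, the closest relative of CLK1, was at 616 in control and 1494 in RD-treated cells by its brightest probe set, 2.42-fold higher. Its second probe set went from 253.5 to 535, which is 2.11-fold, while the dimmer other two went from 138 to 169 and from 107 to 143 and were not called. All 4 probe sets of CLK4 thus had the higher signal with RD, by differences from 0.30 to 1.28. Their median was 0.75, under the threshold, so the call of CLK4 did not hold when genes were read by the median over their probe sets. CLK3, which phosphorylates SR proteins as well, went from 849 to 1439.5, 1.70-fold and short of the threshold, and its other probe set reached the floor on neither array. The median over that pair was 1.20, past the threshold only through the probe set under the floor. CLK2 went from 626 to 581, a ratio of 0.928. With 1 probe set each, CLK1 and CLK2 carry no check by a second probe set.

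The promoters of the called genes are shown because CLK1 and CLK4 moved in the same direction, with CLK2 as the uncalled relative and HNRNPD as the gene called lower. Each stretch runs from 100 bases before to 30 bases after the annotated start in RefSeq (GRCh38.p14), 5′ to 3′ on the minus strand, on which all 4 genes lie. Capitals mark the letters CCATTTT, the core of the motif of the factor YY1, and CACGTG, the E-box that MYC and related factors bind. The motifs do not overlap each other in these stretches.
CLK1, chr2:200864629-200864758: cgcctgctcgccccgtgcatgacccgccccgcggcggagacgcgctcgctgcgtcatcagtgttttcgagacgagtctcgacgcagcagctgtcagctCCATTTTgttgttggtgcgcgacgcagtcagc
CLK4, chr5:178627021-178627150: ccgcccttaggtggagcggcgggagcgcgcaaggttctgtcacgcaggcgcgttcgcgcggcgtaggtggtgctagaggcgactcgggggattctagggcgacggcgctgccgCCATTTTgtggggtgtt
CLK2, chr1:155273475-155273604: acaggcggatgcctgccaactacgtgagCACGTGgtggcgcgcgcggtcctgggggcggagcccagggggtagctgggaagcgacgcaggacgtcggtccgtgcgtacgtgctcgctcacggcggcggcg
HNRNPD, chr4:82373962-82374091: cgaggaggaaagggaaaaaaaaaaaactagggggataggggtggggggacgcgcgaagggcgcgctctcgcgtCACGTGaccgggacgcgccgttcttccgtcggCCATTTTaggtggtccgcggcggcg

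In these stretches the YY1 core began 2 bases before the start of CLK1, at base 14 after that of CLK4 and at base 6 after that of HNRNPD, so the genes called higher and the gene called lower shared it. Over the full 300-base windows of the table, on either strand, CCATTTT was present at 10 of 36 member genes (27.8%) and at 6.61% of the 27305 genes with a window. Besides CLK1, CLK4 and HNRNPD, these were HNRNPA3, HNRNPC, HNRNPDL, HNRNPM, HNRNPUL1, SRSF1 and SRSF5, none of them called by its brightest probe set. CACGTG was present at 8 of the 36 member genes (22.2%) and at 8.77% of all genes, CLK2, CLK4 and HNRNPD among them. TGACGT, the stem of the cAMP response element, was present at 8 member genes (22.2%), CLK4 and SRSF1 among them, and at 9.64% of all genes. The ETS core CTTCCGG was present at 6 member genes (16.7%) and 12.2% of all genes, and CCAAT at 19 member genes (52.8%) and 39.7% of all genes. A gene counted if any of its windows matched. By window, the shares were 20.0% of 55 member windows and 5.42% of all windows for CCATTTT. They were 16.4% and 7.26% for CACGTG, and 14.5% and 7.98% for TGACGT. For CTTCCGG they were 10.9% and 10.3%, and for CCAAT 40.0% and 34.6%. Each of these motifs had the higher share at members, and the genes with a window were not matched to them by class or expression. Whether any of these gaps is particular to the members was not tested. The motifs were chosen after these promoters had been read, and a match describes letters, not binding.

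The SRPK genes, whose kinases act on RS domains in the cytoplasm, were among the least changed members. SRPK1 went from 3563 to 3149 by its brightest probe set and from 922 to 916 by the other. SRPK2 went from 1007 to 943, with its 6 probe sets between -0.64 and 0.02, and the bright ones between -0.16 and 0.02. Neither kinase had a called probe set, and 7 of the 8 SRPK probe sets had the lower signal with RD.

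**Figure D2:**
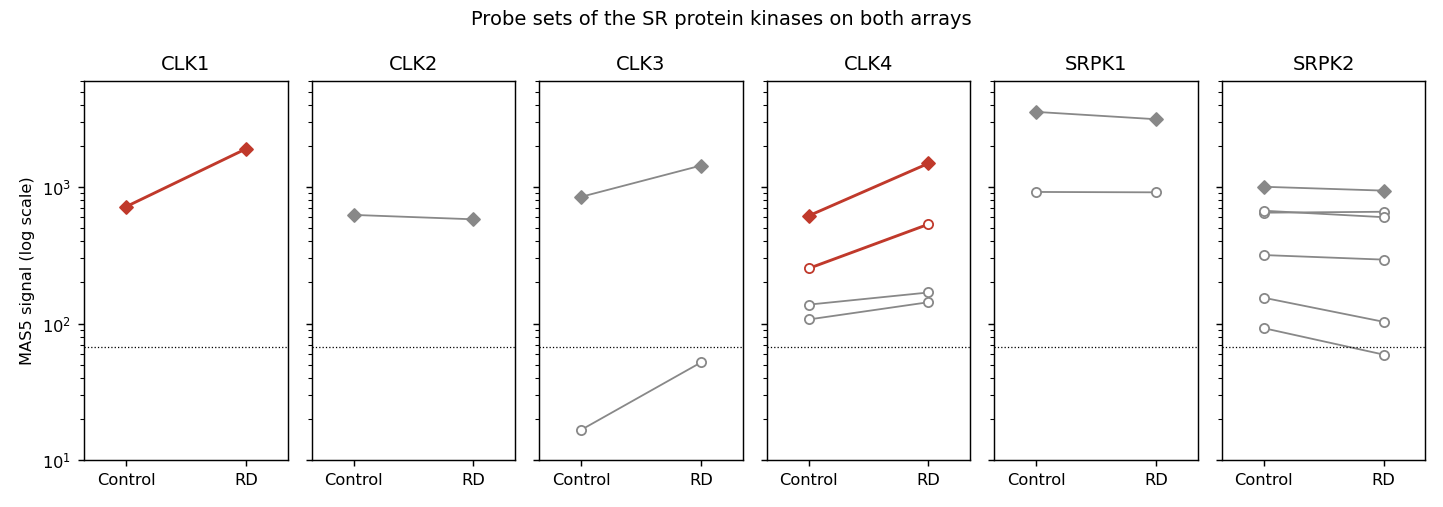
MAS5 signal (log scale) of each probe set of the 4 CLK and 2 SRPK genes on the control and the RD array, joined by a line. Diamonds are the brightest probe set, red lines are called higher, grey lines are not called, with the floor of 66.9 dotted. The red lines belong to CLK1 and CLK4, and the lines of CLK2, SRPK1 and SRPK2 are nearly flat or lean downwards.

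None of the 10 SR protein genes was called by its brightest probe set, and their median difference was -0.13. SRSF11, an SR protein of the spliceosome, had the highest difference, 0.66, from 16993 in control to 26827 in RD-treated cells. SRSF8, an intronless relative of SRSF2, went from 4085 to 5107, with its other bright probe sets at 0.83 and 0.41 and a dim one at -0.21. SRSF4 went from 2435.5 to 2889, and its other probe sets at the floor lay between -0.03 and 0.79. SRSF5 went from 5448 to 6271. All 3 probe sets of SRSF5 had the higher signal with RD, by 0.20 to 0.43. In the other direction, SRSF7, which binds RNA with the help of a zinc knuckle and acts in mRNA export too, went from 11560.3 to 6462, a difference of -0.84. SRSF10, a splicing repressor when dephosphorylated, went from 4929.9 to 3928, and SRSF3, the smallest of the classical SR proteins, from 18792 to 15098. SRSF6 went from 3617 to 3188, and from 320.0 to 412 by a dim probe set. SRSF1, the founding member of the family, was at 13065 in control and 12358 in RD-treated cells, a ratio of 0.946. The probe sets of SRSF12 were at 45.7 and 9.6 in control and 23.8 and 5.2 in RD-treated cells, all under the floor.

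Behind these small differences, bright probe sets of the same SR gene often pointed to opposite sides. SRSF7 had the widest range among the members' bright probe sets. Its probe set 201129_at went from 1717 to 573, which was called lower at 2.99-fold, whereas 213649_at went from 695 to 1359, a difference of 0.97 just short of the threshold. Its brightest probe set lay between them at -0.84, and its remaining one went from 175 to 221. The RD signal was thus lower by the brightest pair of probe sets and higher by the dimmer pair.

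SRSF1 had 8 probe sets, all at the floor. The 3 brightest lay between -0.19 and -0.0027, and 227164_at was equally flat, from 516 to 523. The called exception was 226419_s_at, from 620 to 1600.2, 2.58-fold higher. A further pair of dim probe sets went from 136 to 228 and from 129 to 232, and the last from 146 to 116. Thus the abundant reading of SRSF1 was flat while 1 bright probe set of the same gene rose past the threshold.

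SRSF3 showed the same kind of division without a called probe set. Its 3 brightest probe sets lay between -0.57 and -0.32, while 232392_at went from 599.6 to 940.0, a difference of 0.65. Its dim probe sets went from 268 to 166 and from 61.2 to 98.2. SRSF11 had 3 bright probe sets between -0.05 and 0.66 and a dim one, 236948_x_at, that went from 90.7 to 410.5 and was called higher at 4.53-fold. The suffix of that probe set marks possible cross-hybridisation. The brightest probe sets of SRSF7, SRSF8, HNRNPA1, HNRNPC, HNRNPD, HNRNPDL and HNRNPU carry it too. SRSF10 had 4 bright probe sets between -0.33 and 0.25, and 225348_at, from 404 to 202, stopped just short of 2-fold lower.

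The TRA2 proteins, which are SR-like splicing activators with an RS domain at each end, divided in the same way. TRA2A went from 2133 to 1442 by its brightest probe set, a difference of -0.57, and from 272 to 603 by 229574_at, which was called higher at 2.22-fold. Dimmer ones went from 266.5 to 353.5 and from 118.5 to 152, and the last was under the floor. TRA2B went from 17021 to 13944 by its brightest probe set, and its 3 bright probe sets lay between -0.29 and 0.23. Its only dim probe set went from 93.2 to 3.8 and was called lower, but its RD signal was under the floor, so the fall is only bounded at 1.39-fold or more.

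Among the 19 hnRNP genes, HNRNPD was the only one called by its brightest probe set. The gene encodes AUF1, which binds AU-rich elements and speeds the decay of many mRNAs. Its signal was 7809 in control and 3469 in RD-treated cells, 2.25-fold lower. That probe set carries the suffix of possible cross-hybridisation, and the other called ones of the gene do not. The next probe sets went from 6529 to 2252 (2.90-fold lower), from 5333 to 2054 (2.60-fold), from 672.5 to 187 (3.60-fold) and from 284 to 47.7, where the RD signal was under the floor and the bound is 4.24-fold. These 5 of the 10 probe sets called lower among all members belonged to HNRNPD. Against them, 213359_at went from 394 to 676, a difference of 0.78, and the other 3 were under the floor on both arrays. HNRNPD-DT, a noncoding RNA transcribed away from the same region, went from 103 to 139.7 and was not called.

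HNRNPDL, a close relative of HNRNPD that lies near it on chromosome 4, did not follow it by most of its bright probe sets. Its brightest probe set went from 7584 to 13812, a difference of 0.86, the highest of the hnRNPs. Another 3 bright probe sets lay between 0.07 and 0.35. The probe sets at 0.86 and 0.35 carry the suffix of possible cross-hybridisation, those at 0.07 and 0.15 do not. The exception was 209068_at, from 920.1 to 303, called lower at 3.04-fold. Its last probe set was under the floor on both arrays. HNRNPDL thus had a called probe set opposite in direction to its brightest one.

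The A/B family, whose core members repress splice sites and package nascent RNA, was divided between genes and within HNRNPA2B1. HNRNPA0 went from 3427 to 5787, a difference of 0.76, with its other probe sets at 0.25 and -0.21. HNRNPA1 had 3 probe sets that were all higher with RD, by 0.44 to 0.80, the brightest from 5441 to 7457. HNRNPA2B1 went from 20934 to 12755.5 by its brightest probe set, a difference of -0.71, but from 2991 to 5159 and from 666 to 1179 by the other bright ones, differences of 0.79 and 0.82, and its dim one was under the floor. All 3 probe sets of HNRNPA3 were lower with RD, by -0.90 to -0.25, and HNRNPAB, read by 1 probe set, went from 14998 to 10886.5. None of the 14 probe sets of these 5 genes was called.

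**Figure D3:**
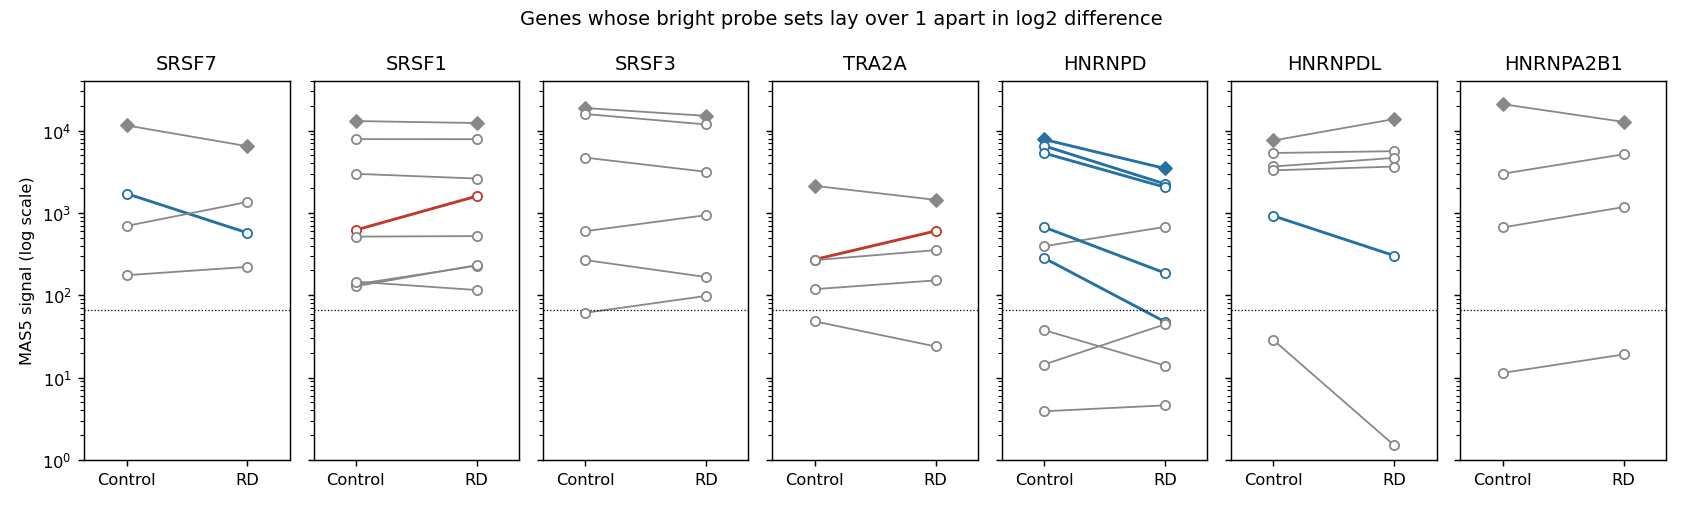
MAS5 signal (log scale) of every probe set of the 7 genes whose bright probe sets lay over 1 apart in log2 difference, on the control and the RD array. Diamonds are the brightest probe set, red lines are called higher, blue lines called lower, grey lines not called, with the floor of 66.9 dotted. Lines of 1 gene cross or diverge, as for SRSF7, where 201129_at goes from 1717 to 573 and 213649_at from 695 to 1359.

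The remaining hnRNPs were not called by their brightest probe sets. HNRNPUL1, a relative of HNRNPU, had the second lowest difference, -0.76, from 3109 to 1832, with its other probe set at -0.16. HNRNPLL, a regulator of CD45 splicing in lymphocytes, went from 1241 to 819.7. It was the only member gene with probe sets called in opposite directions, 236104_at from 181 to 81.0 (2.23-fold lower) and 1554453_at from 41.4 to 97.5, which is at least 1.46-fold higher and so rests on a control signal under the floor. HNRNPU, a scaffold protein of the nucleus, was higher by 0.26 and 0.21 in its bright probe sets, from 7687 to 9185 in the brightest, and by 0.20 in a dim one. Its dimmer 235603_at went from 151 to 56.1 and was called lower, at least 2.26-fold, and 225805_at went from 491.5 to 246, just short of 2-fold.

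For the hnRNPs that remain, the bright probe sets of a gene lay at most 0.76 apart. HNRNPM was at -0.60 and -0.62 by its bright probe sets, HNRNPL, which binds CA repeats, at -0.55 and -0.62, and HNRNPR at -0.36 and -0.45, with a dim probe set at -0.92. The dim probe sets of HNRNPM were at 0.06 and -0.42, and 3 were under the floor. HNRNPK, a poly(C)-binding protein, was at -0.08 and -0.02. HNRNPC, which binds uridine tracts, had 4 probe sets with control signals of 12449 to 25607.5 that lay between -0.03 and 0.06, while 227110_at was at -0.61, a dim probe set at -0.50 and another under the floor. HNRNPH1, which binds G tracts, had 4 probe sets between 0.18 and 0.70, HNRNPH3 had 4 between -0.40 and 0.36, HNRNPF was at -0.10 and HNRNPUL2 at 0.45 and 0.31. The genes in this group thus ranged from slightly lower to slightly higher, and none had a called probe set.

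Probe sets of a gene share the same arrays, so their scatter holds no error between cultures or arrays. It describes only how far the readings of a gene lay apart. Bright probe sets of member genes lay further apart than those of all genes, a description without a test. With dim ones included, the SDs were alike. The SD of the differences within a gene was 0.59 over 81 bright probe sets of 28 member genes and 0.31 over 7630 bright probe sets of 3046 genes. Of 91 pairs of bright probe sets of the same member gene, 18 (19.8%) lay over 1 apart, against 281 of 6783 pairs (4.14%) over all genes. The pairs came from 7 of 28 member genes, namely SRSF7, HNRNPDL, HNRNPD, TRA2A, SRSF1, HNRNPA2B1 and SRSF3, against 5.84% of all genes. Opposite signs were found in 42.9% of the members' pairs and 18.7% of all pairs. These counts include pairs near 0, such as 0.02 and -0.01 for HNRNPC. The quartiles of bright members also lay nearer 0 than those of all bright probe sets. The member genes had 2.89 bright probe sets each and all genes 2.505, and pairs of a gene are not independent of each other. When dim probe sets at the floor were included, the SD was 0.75 for members and 0.76 for all genes. These SDs pool bright and dim probe sets, so they do not describe dim ones alone. Among members, TRA2B had an SD of 2.27, through a dim probe set at -4.62 whose RD signal was under the floor. Over all 33 member genes with at least 2 probe sets, 10 had called and uncalled probe sets side by side, a share close to the 29.6% of such genes at large, and 1 had calls in opposite directions, against 1.25%. Whether these divisions come from different transcripts of a gene or from the probes themselves was not tested.

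Of the 142 probe sets, 25 had been designed on a RefSeq mRNA and none of them was called, with differences between -0.88 and 0.76. All 17 calls fell on the 117 probe sets designed on other sequence records, which include mRNA and short single-read records. Of all probe sets with a single gene name, those on a RefSeq mRNA were called higher in 7.52% and lower in 9.41% of cases, and those on other records in 8.33% and 7.57%. Probe sets with the plain suffix, which marks probes meant for 1 transcript, gave 3 higher and 7 lower calls of 67, against 7.96% and 7.73% of all such probe sets. Those with the suffix for shared transcripts gave 3 higher and 2 lower of 54, against 8.62% and 8.82%.

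Other genes of the splicing machinery were read from lists of known factors by the brightest probe set, with 153 of 169 listed genes measured. In all, 8 were called higher and 11 lower, and the median difference was 0.03. Over all genes 7.84% were called higher and 8.63% lower, with a median of -0.0071, so neither count stood above that background. Of the 11 lower calls, 9 fell on the Sm, LSm and tri-snRNP lists. Since the lists were chosen with earlier results of these data known, where calls fell among them is a description without a test. All 8 measured Sm genes, whose proteins form the ring around spliceosomal snRNAs, had the lower signal with RD, with a median of -1.03, and 4 were called lower. Of these, SNRPF went from 6744 to 2675 (2.52-fold lower), SNRPD1 from 10003 to 4412 (2.27-fold), SNRPD3 from 8816 to 4238 (2.08-fold) and SNRPG from 24887.5 to 12422 (2.00-fold). The ring genes SNRPE, SNRPD2 and SNRPB were at -0.96, -0.73 and -0.72, and SNRPN was under the floor. Of 22 genes of the tri-snRNP and the related LSm ring, 5 were called lower and none higher, with a median of -0.38. They were LSM3 at 2.58-fold, LSM4 at 2.34-fold, LSM7 at 2.29-fold, LSM2 at 2.08-fold and SNU13, which binds U4 snRNA, at 2.17-fold.

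Of the 8 higher calls, 5 fell on SR-related proteins, which carry arginine and serine repeats but are no classical SR proteins. Of 21 such genes, 5 were called higher and none lower, with a median of 0.39, beside 7.84% called higher and a median of -0.0071 over all genes. RSRP1 went from 681 to 1951 (2.87-fold), CCNL2 from 1220.3 to 2720.3 (2.23-fold) and CCNL1 from 1527 to 3100.5 (2.03-fold). CCNL1 and CCNL2 encode the L cyclins, partners of splicing-associated kinases. SREK1 went from 3024 to 6484 (2.14-fold), and SON, a core protein of nuclear speckles, from 3589.9 to 7199 (2.01-fold). CCNL1 and SON, with differences of 1.02 and 1.004, lay only just past the threshold. Among other kinases and phosphatases that act on SR proteins, DYRK3, which dissolves condensates such as speckles, went from 284 to 949.5 (3.34-fold), the only call among 12 genes.

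No gene was called among 7 U1 genes (median 0.49), 18 genes of U2, SF3 and U2AF (-0.06) and 9 of the exon junction complex and nonsense-mediated decay (0.17). Of 19 genes of the Prp19 complex and catalytic steps, SLU7, a factor of the second step, was called higher at 2.14-fold, and the median was 0.30. Of 37 other RNA-binding regulators, RBM39 was called higher, from 9766 to 20669.5 (2.12-fold), while CELF2 went from 2261 to 388.5, 5.82-fold lower, and RBFOX2 from 4486 to 2205.5, 2.03-fold lower. Their median was -0.03. Set beside these lists, the 4 CLK genes had a median of 1.02, the 10 SR genes -0.13 and the 19 hnRNPs -0.31.

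**Figure D4:**
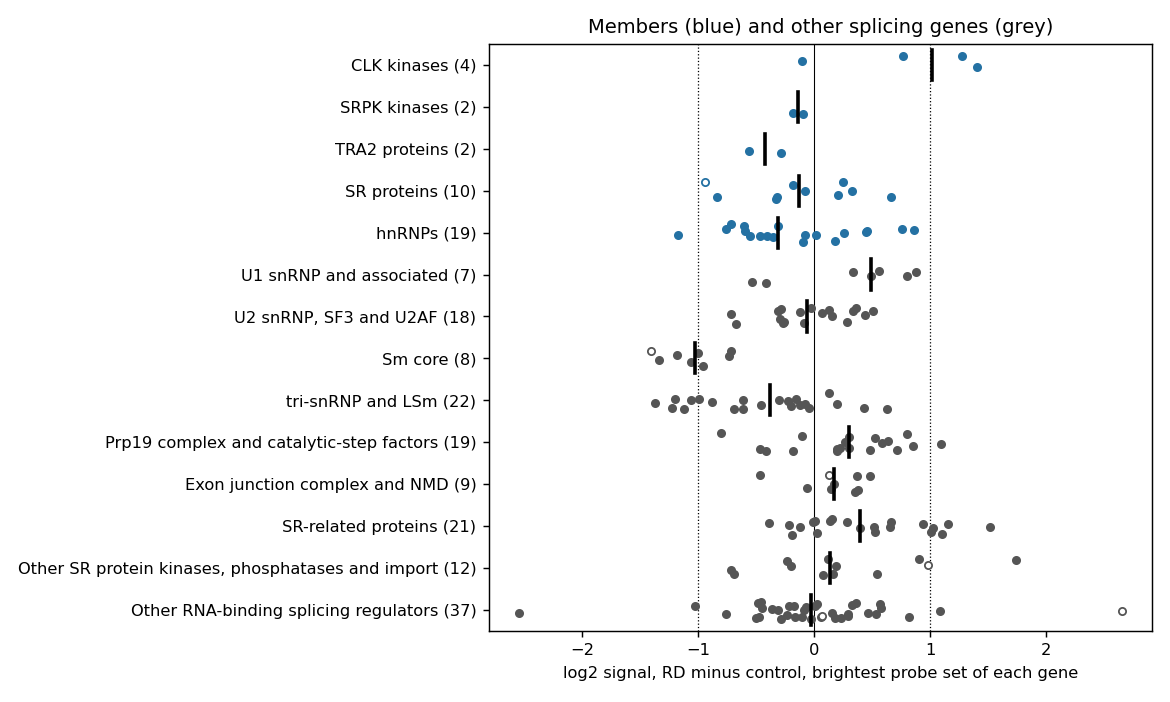
Difference in log2 signal (RD minus control, horizontal) of each gene by its brightest probe set, for the members by role (blue) and for lists of other splicing genes (grey), with the number of genes in brackets. Black bars show medians, dotted lines the 2-fold threshold, and open circles genes whose lower signal was under the floor. The medians run from -1.03 for the Sm core to 1.02 for the CLK kinases, with SR proteins at -0.13 and hnRNPs at -0.31 between them.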

How the data were processed

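Total RNA of RD-treated and control PC-3 cells was hybridised to 1 array each. The authors deposited signal intensities on a linear scale, MAS5 per the labels, with no version or scaling target stated in the sources used here. MAS5 subtracts mismatch probes, so signals under the floor are noisy. No offset or further scaling was applied before log2. Names came from the platform annotation, and all 39 member symbols matched RefSeq (GRCh38.p14) by gene identifier. Each gene was represented by the probe set with the highest mean log2 signal. A signal under the floor gives only a bound against it. No statistical test between the conditions was possible, and lists are described by counts and medians, with those of all genes given once. Text names all CLK, SRPK, TRA2 and SRSF genes, and the hnRNPs that were called, had called probe sets or were among the 3 highest or lowest. The other hnRNPs are named to account for every member. Members and lists were chosen with earlier results of these data known. Alternatives were median centring, quantile normalization, an offset of 17.1 (25th percentile), no floor, a floor at 377.4, raising signals to the floor, thresholds of 1.5-fold and 3-fold, the median over probe sets, and plain-suffix probe sets only. The code that makes the calls was tested on simulated data with known differences. Analyses used pandas 2.3.3 and numpy 2.4.6 under Python 3.11.15, and plots matplotlib 3.10.9.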

Additional observations from a re-analysis of the deposited data

How the results depend on the processing

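The counts depended most on the threshold. Shares over all probe sets and genes are given for the main reading only, so counts under the alternatives have no background beside them. At 1.5-fold, 23 member probe sets were called higher and 25 lower, 6 genes each way, 26 genes had called beside uncalled probe sets and 6 had opposite calls, and 21 other splicing genes were higher and 25 lower. At 3-fold, 1 member probe set was higher and 4 were lower, 0 genes were called either way, 4 genes had called beside uncalled probe sets and 0 had opposite calls, and 1 other splicing gene was called each way. With a floor at the 75th percentile, 6 member probe sets were lower and 0 genes had opposite calls. That count was also 0 with the offset and with signals raised to the floor, and 3 with no floor, where 2 genes were called lower. Median centring left 6 other splicing genes called higher and 13 lower, beside 8 and 11 in the main reading. With plain-suffix probe sets only, 3 member probe sets and 1 gene were higher and 3 genes lower, and HNRNPD turned from -1.17 to 0.78, since 213359_at then became its brightest. CLK1, CLK2, SRPK1, SRSF5 and SRSF6, without such a probe set, gave no value there. The genes called changed as well: by the median over probe sets CLK4 (0.75) lost its call and CLK3 (1.20) gained one, and with plain suffixes HNRNPD lost its call while HNRNPDL (-1.60), HNRNPLL (-1.16) and SRSF7 (-1.58) were called lower. Of 255 values of single named genes under the alternatives, 9 moved by 0.76 or more. That is the SD between probe sets of a gene, used as a yardstick and not as an error of the comparison. The sign turned in 12 values of 9 genes, all under these same 2 settings. With plain suffixes it turned for HNRNPD, HNRNPA2B1 (0.82), HNRNPDL, HNRNPU (-0.997), SRSF3 (0.65), SRSF1 (0.02) and SRSF10 (0.05), and by the median for HNRNPA2B1 (0.77), TRA2A (0.36), SRSF6 (0.09), SRSF10 (0.05) and SRSF1 (0.01). The arrays give no detection calls, and a small difference cannot be told from culture-to-culture spread.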
